A study of Mus musculus with 80 samples.

Results

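The livers compared here had been without food at every time of collection, and differed in the phase of the circadian day. Mice fasted for 22 h and collected at circadian time (CT) 32, the middle of the rest phase, were set against mice fasted for 10 h at CT20 and for 34 h at CT44, the middle of the active phase on the nights before and after. The members are the 12 libraries of a raw gene count table whose titles say fasted and give one of these times, out of 80 libraries in the series, 40 of them titled fasted. There were 4 libraries at CT32 and 8 in the active phase, 4 at each time, and every time held 2 males and 2 females. The mean fast of the 8 active-phase mice was also 22 h, so that a change running linearly with fast length cancels out. A change that bends with fast length cannot be told apart from a change with phase.

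All mice were C57BL/6J, an inbred strain, aged 8 to 12 weeks, housed in groups and kept in a light–dark cycle for 10 days before release into constant darkness. Food was withdrawn at CT10 from the fasted mice, whereas the 12 control mice of the same times, used here as the fed comparison, ate ad libitum and carried no other treatment. RNA came from the left lobe of the liver, and polyadenylated transcripts were sequenced with strand-specific libraries. Nothing in the labels says whether mice of a group shared a cage, so the p-values measure the spread between sampled mice. That spread was estimated over 72 libraries of the series, CT12 to CT44 in both treatments.

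Circadian rhythms in liver rest on a transcriptional–translational feedback loop (TTFL). CLOCK, or its relative NPAS2, pairs with BMAL1 and binds E-boxes to switch on the Period and Cryptochrome genes, whose products shut the pair down, as well as the nuclear receptors REV-ERBα and REV-ERBβ (Nr1d1 and Nr1d2), which repress Bmal1 in turn. The loop drives clock-controlled genes (CCGs) directly and through the PAR bZIP factors DBP, TEF and HLF, which share D-box sites with the repressor NFIL3. Feeding is a strong zeitgeber for this clock, and a comparison within fasted mice asks which day–night differences remain when there is no meal.

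The DNA elements through which the loop works can be read in the 250 bases that lie before the transcription start of some of its genes, from RefSeq on GRCm38.p6. The windows shown were picked because they hold an element, not by how far the gene moved. The elements were searched because the E-box and the D-box are the sites named above, and the heat shock element was added because 17 of 18 heat shock genes were lower at rest. Sequences run 5′ to 3′ along the gene's strand, and capitals mark the element.

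Ciart, chr3:95882229-95882478, minus strand, 3 E-boxes: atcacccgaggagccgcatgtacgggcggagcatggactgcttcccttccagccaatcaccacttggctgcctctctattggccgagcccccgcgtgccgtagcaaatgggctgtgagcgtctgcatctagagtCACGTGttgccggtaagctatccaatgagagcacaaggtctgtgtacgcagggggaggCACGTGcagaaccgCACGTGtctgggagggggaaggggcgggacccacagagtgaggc

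Tef, chr15:81802423-81802672, plus strand, 1 E-box: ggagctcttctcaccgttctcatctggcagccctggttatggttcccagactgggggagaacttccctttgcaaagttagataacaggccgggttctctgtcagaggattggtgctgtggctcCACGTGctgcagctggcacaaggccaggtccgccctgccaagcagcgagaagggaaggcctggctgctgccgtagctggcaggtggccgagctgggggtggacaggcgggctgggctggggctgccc

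Cry1, chr10:85185055-85185304, minus strand, 1 E-box: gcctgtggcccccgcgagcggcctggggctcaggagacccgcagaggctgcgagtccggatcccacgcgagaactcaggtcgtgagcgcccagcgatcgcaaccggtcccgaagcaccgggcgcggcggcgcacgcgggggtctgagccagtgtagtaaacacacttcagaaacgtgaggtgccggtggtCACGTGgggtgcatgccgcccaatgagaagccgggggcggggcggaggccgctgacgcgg

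Per3, chr4:151044666-151044915, minus strand, 2 D-boxes: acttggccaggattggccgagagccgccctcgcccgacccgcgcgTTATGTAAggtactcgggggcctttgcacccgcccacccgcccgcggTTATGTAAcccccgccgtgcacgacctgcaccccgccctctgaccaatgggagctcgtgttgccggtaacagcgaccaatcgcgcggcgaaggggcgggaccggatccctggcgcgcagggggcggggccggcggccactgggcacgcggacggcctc

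Hspb1, chr5:135887669-135887918, plus strand, 2 heat shock elements: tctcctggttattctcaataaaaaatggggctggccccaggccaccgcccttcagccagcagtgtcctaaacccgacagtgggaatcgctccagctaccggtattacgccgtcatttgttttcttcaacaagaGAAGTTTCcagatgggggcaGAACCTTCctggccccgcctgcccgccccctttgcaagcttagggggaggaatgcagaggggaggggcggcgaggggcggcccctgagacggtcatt

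Searched on both strands, the E-box CACGTG occurred in 6.02% of 32851 such windows over the genome, counted over 27025 genes in 6.86% of genes. It was found in 4 of the 8 clock repressors with an entry, in 3 of 9 output factors and in 0 of 4 clock activators. The D-box TTATGTAA was in 0.819% of windows and in Per3 alone of these genes. Neither the E-box nor the D-box was in the windows of Dbp, Nr1d1, Bmal1 or Nfil3, which moved more than Tef or Cry1. The heat shock element, searched as GAANNTTC or TTCNNGAA, was in 12.8% of windows, 14.5% of genes, and in 7 of 14 heat shock genes. These 7 hold Hspe1, whose window lies within Hspd1 on the opposite strand, and Hspd1 itself. They also hold the near copies Hspa1a and Hspa1b, so the matches may not all be separate. A match describes these letters only, and a window without one says only that these letters are not in it.

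Before any comparison, the 12 libraries were looked at as samples. Their totals lay between 36300088 and 47037236 counts at CT32 and between 30551612 and 52999252 in the active phase (two-sided exact permutation test over 495 arrangements, p = 0.853). Mitochondrially encoded genes took 5.47% to 6.45% at CT32 and 5.38% to 7.13% in the active phase. The defining hepatocyte markers were abundant throughout, their summed level being 87440 to 106000 CPM (counts scaled to the size of the library) at CT32 and 82960 to 124800 in the active phase. The female at CT44 numbered 1 stood apart from the other active-phase mice. Of 5682 genes called below, 994 had groups that overlapped through this library alone, 17.5% of the calls, against 38 to 285 genes for each of the other 7 active-phase libraries. For several genes on which it bears, values without it are given.

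Without food, 5682 of 20965 genes tested differed between rest and active phase, 27.1%, at an adjusted p under 0.05 in edgeR's quasi-likelihood test with Benjamini–Hochberg adjustment. Of all genes tested, 14.2% were higher at rest (2986 genes) and 12.9% lower (2696 genes). Counts in the gene lists below stand against these shares. Beyond a change of 2 times there were 1375, 814 higher and 561 lower. In 4.36% of all genes the 4 libraries at CT32 lay above all 8 of the active phase, and in 4.48% they lay below. Folds below are log2 differences from this fit, rest minus active phase, each with its standard error (SE), and levels are CPM scaled between libraries.

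The activating arm of the TTFL fell at rest in full, with 5 of 5 genes lower and a median log2 difference of -1.37, against 0.02 over all genes tested. Bmal1 (also known as Arntl, chr7:113207465-113314126, plus strand, GRCm38) stood at 2.88, 5.31, 3.52 and 3.19 CPM in the 4 mice at CT32. The 8 active-phase mice ranged from 13.5 through a median of 28.9 to 37.4 CPM. The groups did not touch, and the log2 difference was -2.87 ± 0.26 (adjusted p = 1.19e-10). The lowest active-phase value belonged to CT44 female 1, without which the difference was -2.98.

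Npas2, the partner that can stand in for CLOCK, was nearly silent at rest, at 0.202, 0.383, 0.548 and 0.42 CPM. It ranged from 0.442 to 14.7 CPM in the active phase with a median of 2.19, and the overlap came from CT44 female 1 (-2.91 ± 0.43, adjusted p = 1.62e-06). Clock fell less, from a median of 108 CPM in the active phase to between 44.3 and 61 CPM at rest (-1.02 ± 0.09). It overlapped through the same library, at 57.9 CPM. Without that library the log2 differences were -3.10 for Npas2 and -1.105 for Clock. Rora, encoding a nuclear receptor that activates Bmal1, fell by 0.71 on the log2 scale, without overlap.

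Of the 10 repressors, 6 were higher at rest, 1 was lower and 3 did not pass the test, with a median of 0.71. Nr1d1, encoding REV-ERBα (chr11:98767932-98775333, minus strand), was at 123, 123, 84.4 and 49.3 CPM at CT32 and between 3.76 and 39.9 CPM in the active phase, with a median of 11.2. All resting mice lay above all active ones, by 3.15 ± 0.27 (adjusted p = 3.47e-11). The highest active value was again CT44 female 1, and the other 3 mice at CT44 had 12.5 to 14.9 CPM. Nr1d1 differed by 3.415 without that female. It shares 263 exon bases, 8.55% of its exon length, with Thra on the opposite strand (0.40 ± 0.11, adjusted p = 0.00477).

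Per3, a Period gene of the repressor complex, stood at 61.3, 49, 47.9 and 54.3 CPM at rest against 3.71 to 29.9 CPM in the active phase, with a median of 10.3 (2.43 ± 0.26, adjusted p = 4.95e-09). Ciart, which represses CLOCK–BMAL1 and carries the 3 E-boxes printed above, had 27.3, 63.8, 38.7 and 37.1 CPM at rest and 5.74 to 18.8 CPM in the active phase, with a median of 9.60 (2.06 ± 0.26). Bhlhe41, a repressor that competes at E-boxes, rose by 2.20 ± 0.33 at levels of at most 6.28 CPM, and shares 19% of its exon bases with the opposite-strand transcript Gm43909. The 2 resting males lay above the 2 resting females, of which the lower one overlapped the active phase. Nr1d2, encoding REV-ERBβ, rose by 1.00 ± 0.12, and CT44 female 1 at 88 CPM touched the resting range of 87.7 to 102 CPM. Without that mouse the rise was 1.08. Cry2 rose by 0.35 ± 0.11 (adjusted p = 0.0172), a call lost without CT32 male 2, CT32 female 1 or CT44 female 2, with adjusted p up to 0.0752.

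Cry1 moved the opposite way to its fellow repressors. The resting mice had 7.23, 10.5, 8.64 and 11.2 CPM, and the active-phase mice 30.6 to 52.6 CPM with a median of 41.7. The groups were far apart, at -2.11 ± 0.19 (adjusted p = 1.16e-10). Per1 (-0.01 ± 0.30, adjusted p = 0.997), Per2 (0.41 ± 0.16, adjusted p = 0.058) and Bhlhe40 (-0.06 ± 0.16, adjusted p = 0.843) did not pass the test. Per1, also an immediate responder to hormonal and metabolic signals, stayed at 70.8 to 105 CPM at rest and 73.2 to 112 CPM in the active phase.

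**Figure D1:**
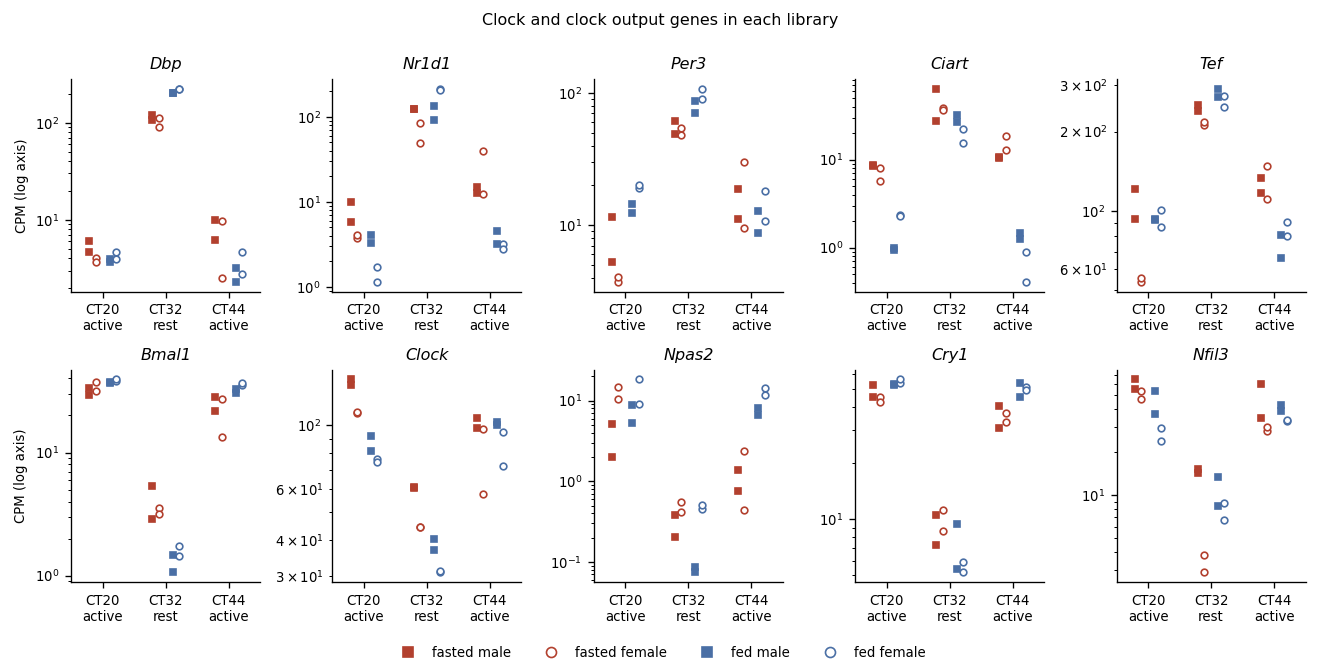
Levels of 10 clock and clock output genes in CPM on a log axis at CT20, CT32 and CT44, with a point for each mouse, filled squares for males and open circles for females, red for fasted and blue for fed. In fasted mice Dbp, Nr1d1, Per3, Ciart and Tef lie above all active-phase mice at CT32, Bmal1, Cry1 and Nfil3 lie below them, and Clock and Npas2 overlap through a female at CT44.

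Among 12 output factors of the clock, 5 were higher at rest, 4 lower and 3 did not pass. Dbp (chr7:45705088-45710203, plus strand), the PAR bZIP factor driven by E-boxes, was the largest rise of all genes named here. It read 119, 107, 112 and 90.9 CPM at rest against 2.51 to 9.85 CPM in the active phase, with a median of 5.33 (4.25 ± 0.33, adjusted p = 3.48e-12), a ratio of means of 18.4. Dbp shares 539 exon bases with Sphk2 on the opposite strand, 18% of its exon length, and whether strand was used in counting is not given in the sources used here. Sphk2 itself did not pass the test (-0.15 ± 0.11, adjusted p = 0.341).

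Nfil3, the repressor that competes with DBP for D-boxes, was a mirror image, at 15.3, 14.4, 2.87 and 3.8 CPM at rest and 28.3 to 64.7 CPM in the active phase, with a median of 50.6 (-2.68 ± 0.22, adjusted p = 2.89e-11). The low resting values were those of the 2 females. Tef rose by 1.22 ± 0.13 from a median of 114 CPM to between 211 and 252 CPM. Hlf rose by 0.47 ± 0.14 (adjusted p = 0.0118), a call that did not hold without CT32 male 1 (adjusted p = 0.0801).

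Usp2, a deubiquitinase, rose by 1.25 ± 0.21, and Wee1, a kinase that holds back mitosis and a known clock target, rose by 1.17 ± 0.21. The ubiquitin ligases Lonrf3 (-2.22 ± 0.28) and Dtx4 (-1.20 ± 0.21) fell. Klf10 fell by 1.17 on the log2 scale (adjusted p = 0.0135), but not without CT32 male 2 or CT32 female 2 (adjusted p up to 0.0752). Fmo5 (-0.12), Noct (0.18) and Tspan4 (-0.03) did not pass. Of 11 kinases and ubiquitin ligases that act on clock proteins, 3 were higher and 4 lower. Csnk1d, encoding the PER kinase CK1δ, fell by 0.38 ± 0.06 without overlap, and Btrc, encoding the ligase adaptor that takes up phosphorylated PER, rose by 0.46 ± 0.08. The 4 lower calls became 2 without CT32 female 2.

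Heat shock proteins, the chaperones that fold proteins under stress, were lower at rest in 17 of 18 and higher in 0, with a median log2 difference of -0.77. In 10 of the 18 the groups did not overlap. Hspb1, a small heat shock protein, was at 10.3, 9.84, 9.37 and 8.32 CPM at rest and 21.6 to 62.2 CPM in the active phase, with a median of 48.2 (-2.24 ± 0.32, adjusted p = 1.32e-06). The resting mice differed little among themselves, and the lowest active value was CT44 female 1, without which the difference was -2.36.

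Hsp90aa1, the inducible HSP90 chaperone, had 119, 87.9, 82.4 and 75.2 CPM at rest and 149 to 327 CPM in the active phase, with a median of 259 (-1.45 ± 0.19, adjusted p = 2.48e-07). Hsph1 (-1.88 ± 0.31), a nucleotide exchange factor of HSP70, Hspa4l (-1.20 ± 0.16), its relative, and Ahsa1 (-0.74 ± 0.09), which stimulates the ATPase of HSP90, fell without overlap. So did the mitochondrial chaperonin Hspd1, by 0.40 ± 0.07 on the log2 scale. Dnaja1 alone did not pass (-0.21, adjusted p = 0.394). The near-identical pair Hspa1a and Hspa1b, named after their values were seen, can share reads, and their differences of -1.41 and -2.99 are uncertain for that reason. Without each fasted library in turn, 16 or 17 of the 18 were lower.

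Chaperones of the endoplasmic reticulum did not follow, with 1 of 19 lower and 0 higher. The exception was Dnajc3 (-0.36 ± 0.09, adjusted p = 0.00272), a co-chaperone that restrains the kinase PERK. Cold-inducible RNA-binding proteins went the other way from heat shock genes. Cirbp was at 32.5, 40.1, 42.3 and 37.1 CPM at rest, whereas 7 active-phase mice had 11.5 to 18.3 CPM and CT44 female 1 had 52.8 CPM (1.07 ± 0.18, adjusted p = 1.58e-05, and 1.35 without that mouse). Rbm3 rose by 0.57 ± 0.12, also with 60 CPM in CT44 female 1 (0.65 without that mouse), and Srsf5 did not pass (0.08). No body temperature was among the data used here.

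**Figure D2:**
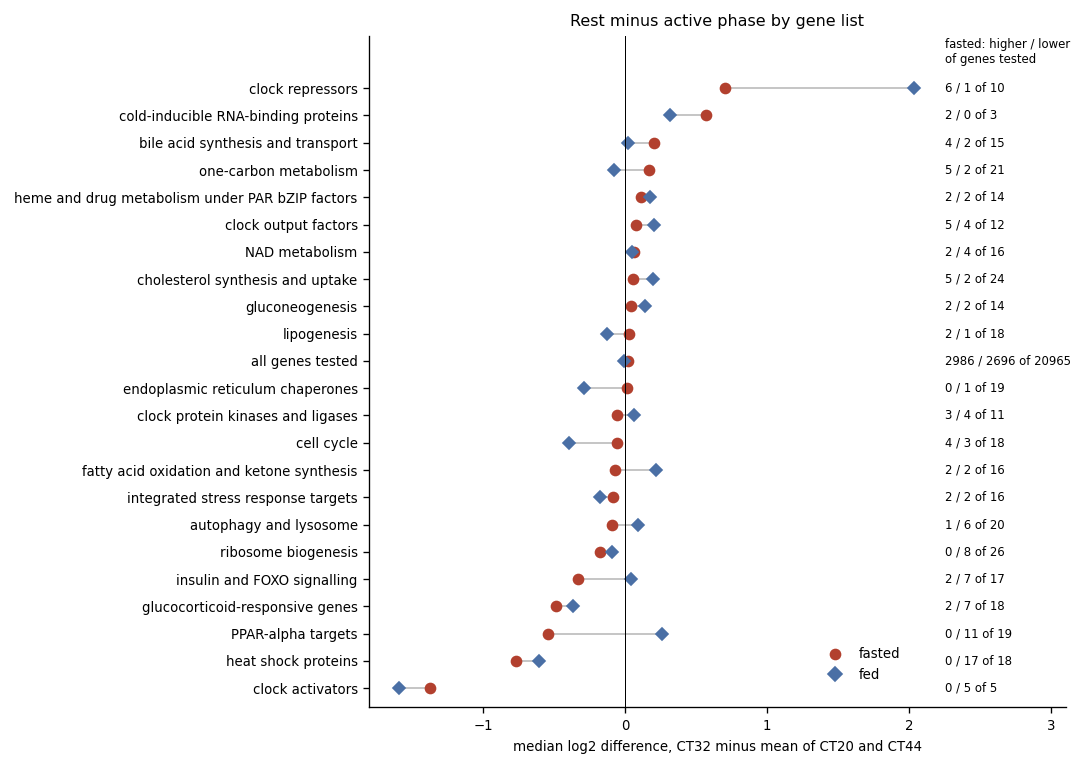
Median log2 difference between rest and active phase over the genes of each list, fasted as red circles and fed as blue diamonds, with the number of genes called higher and lower in fasted mice at the right. Clock activators and heat shock proteins lie below 0 with and without food, whereas the PPAR-alpha targets lie at -0.54 without food and at 0.26 with it.

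PPAR-alpha, the nuclear receptor that turns on fat oxidation in the fasted liver, had targets that were lower at rest in 11 of 19 and higher in 0, with a median of -0.54. The other 8 did not pass, and the targets named here were chosen mostly by p, which favours clear falls. Pdk4 (chr6:5483351-5496309, minus strand), the kinase that shuts off pyruvate oxidation, was the largest fall of all genes named here. Resting mice had 4.49, 5.74, 8.79 and 6.13 CPM after 22 h without food, and active-phase mice 140 to 479 CPM with a median of 199 (-5.32 ± 0.57, adjusted p = 4.79e-09). Mean levels were 245 CPM at CT20 and 265 CPM at CT44, on either side of the 6.29 CPM at CT32, and the nights did not differ beyond their spread (CT44 minus CT20, 0.21, adjusted p = 0.853).

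Slc22a5, the carnitine importer, fell by 1.43 ± 0.19 and Cidec, a lipid droplet protein, by 1.67 ± 0.31, both without overlap. The fasting hormone Fgf21 was at 3.66, 1.24, 3.31 and 2.98 CPM at rest and 4.32 to 24.9 CPM in the active phase, with a median of 15.9 (-2.48 ± 0.55, adjusted p = 0.00058). Plin2, a coat protein of lipid droplets (-1.28 ± 0.20), and the thioesterase Acot2 (-2.18 ± 0.35) overlapped between groups. Acot2 can share reads with its near copy Acot1. Leaving out each library in turn left 8 to 11 of the 19 lower. Of the enzymes of mitochondrial fat oxidation and ketone synthesis 2 of 16 were higher and 2 lower, the latter becoming 0 without CT32 male 2. These counts lay near the shares over all genes tested, 14.2% higher and 12.9% lower. The fall of Cpt2 (-0.48 ± 0.13) was not called without CT32 male 2 (adjusted p = 0.057), nor the rise of the ketone enzyme Bdh1 (0.82 ± 0.25) without CT32 male 1 (adjusted p = 0.0873).

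Genes of insulin and FOXO signalling were lower at rest in 7 of 17 and higher in 2. Igfbp1, an insulin-repressed secreted protein, was at 31, 104, 70 and 322 CPM at rest and 498 to 4642 CPM in the active phase, with a median of 1239 (-3.79 ± 0.84, adjusted p = 0.000583). Irs2, the adaptor of the insulin receptor, had 46.1, 37.5, 29.7 and 52.5 CPM against 89.2 to 200 CPM, with a median of 148 (-1.81 ± 0.25, adjusted p = 7.35e-07). Neither gene overlapped. Txnip, which restrains glucose uptake, fell by 1.47 ± 0.34, and shares 19.4% of its exon bases with the antisense gene Gm15441, which fell too (-2.33 ± 0.52). Insr, the receptor itself, fell by 0.33 ± 0.07, whereas Pik3r1, the regulatory subunit of PI3 kinase, rose by 0.68 ± 0.13.

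Autophagy and lysosome genes were lower in 6 of 20 and higher in 1. Against CT20 alone 2 of the 20 were lower, and against CT44 alone 6. The mitophagy receptor Bnip3l was at 74.3, 79.4, 73.1 and 70.8 CPM at rest and 107 to 136 CPM in the active phase, with a median of 124 (-0.70 ± 0.08, adjusted p = 5.17e-09). The separation was small and the groups did not overlap. Its relative Bnip3 (-0.47 ± 0.13) and the autophagosome protein gene Map1lc3b (-0.39 ± 0.12) did not overlap either, while Sqstm1 (-0.43 ± 0.09) and Gabarapl1 (-0.34 ± 0.11) did. The calls for Map1lc3b and Gabarapl1 did not hold without CT32 male 1 or CT32 female 1 (adjusted p up to 0.122), that for Gabarapl1 also not without CT44 female 2, and Gabarapl1 shares 28.3% of its exon bases with an opposite-strand transcript. Atg7, needed to lipidate the autophagosome proteins, rose by 0.59 ± 0.08. The 6 lower calls became 3 without CT32 male 1 and 3 without CT32 female 1.

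Glucocorticoid-responsive genes were lower at rest in 7 of 18 and higher in 2. The 7 became 4, and the 2 became 0, without CT32 male 1; the 2 were also 0 without CT32 female 1. Cdkn1a, the cell cycle inhibitor p21, read 7.32, 13.9, 20.2 and 20.9 CPM at rest and 112 to 273 CPM in the active phase, with a median of 190 (-3.62 ± 0.50, adjusted p = 5.64e-07). Ddit4, an inhibitor of mTORC1, fell by 2.64 ± 0.67, and Fkbp5, a chaperone of the glucocorticoid receptor, by 1.08 ± 0.28. Dusp1 (-0.96 ± 0.28) did not pass without CT32 male 1 (adjusted p = 0.0975).

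Bile acid genes were higher in 4 of 15 and lower in 2. Cyp7a1, the rate-limiting enzyme of bile acid synthesis, was at 126, 233, 139 and 456 CPM at rest. In the active phase 7 mice had 7.17 to 27.3 CPM and CT44 female 1 had 177 CPM (3.28 ± 0.52, adjusted p = 5.56e-06, and 4.12 without that mouse). Abcg5, a sterol exporter, rose by 0.86 ± 0.17 without overlap, and Slc10a1, which takes up bile acids, by 0.54 ± 0.13. Cyp8b1, which sets the share of cholic acid, fell by 0.80 ± 0.19, again without overlap.

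Genes of cholesterol synthesis and uptake were higher in 5 of 24 and lower in 2, the latter becoming 0 without CT32 male 2 or without CT32 female 1. Fdft1, squalene synthase, had 55.5, 59.8, 51.2 and 56.4 CPM at rest and 12.8 to 44.3 CPM in the active phase, with a median of 22.9 (1.20 ± 0.18, adjusted p = 1.6e-06). In lipogenesis 2 of 18 were higher and 1 lower, below the shares over all genes tested (14.2% and 12.9%). Srebf1, the factor that drives fat synthesis, rose by 1.09 ± 0.22 without overlap and Acacb, which makes the malonyl-CoA that blocks fat import into mitochondria, fell by 1.70 ± 0.24 without overlap. Thrsp rose by 1.80 ± 0.41 but not without CT32 male 2 (adjusted p = 0.0635). Fasn (-0.33, adjusted p = 0.432) did not pass.

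In gluconeogenesis 2 of 14 were higher and 2 lower, near the shares over all genes tested (14.2% and 12.9%). G6pc1, which frees glucose in the last step, was at 308, 289, 304 and 325 CPM at rest and 427 to 874 CPM in the active phase, with a median of 666 (-1.13 ± 0.22, adjusted p = 0.000121). Tat, an amino acid catabolic enzyme, fell by 1.04 ± 0.32 but did not pass without CT32 male 1 or CT32 female 1 (adjusted p up to 0.0902). Genes of heme and drug metabolism under the PAR bZIP factors were split, 2 of 14 higher and 2 lower, again near those shares. The transporter Slc16a12 rose by 0.97 ± 0.14 without overlap, whereas Cyp2b10 fell by 2.76 ± 0.53 over a range of 2.16 to 18 CPM at rest and 9.39 to 277 CPM in the active phase.

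One-carbon metabolism, which passes methyl groups from folate to S-adenosylmethionine, had 5 of 21 genes higher and 2 lower. Bhmt2, a homocysteine methyltransferase, rose by 0.36 ± 0.10 (adjusted p = 0.00357), from 193 to 306 CPM in the active phase, with a median of 230, to 307, 331, 282 and 287 CPM at rest, and the groups overlapped. Mthfd1 rose by 0.32 ± 0.08 and Mat2a, the methionine adenosyltransferase of extrahepatic tissues, fell by 0.34 ± 0.09. The 5 higher calls became 3 without CT32 female 1 and 3 without CT32 female 2.

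In NAD metabolism 2 of 16 were higher and 4 lower, the 4 becoming 2 without CT32 male 1 and 2 without CT32 female 1. Nmnat3, a mitochondrial enzyme of NAD synthesis, rose by 1.14 ± 0.15, and the NAD-dependent deacetylase Sirt1 fell by 0.51 ± 0.10, both without overlap. Integrated stress response targets were higher in 2 of 16 and lower in 2, near the shares over all genes tested (14.2% and 12.9%). Ribosome biogenesis genes were lower in 8 of 26 and higher in 0, but that count ran from 2 without CT32 female 1 to 10 across libraries left out. Among 18 cell cycle genes 4 were higher, Ccnd1 (1.14 ± 0.26) and Ccne1 (1.96 ± 0.44) among them, and 3 lower. Both overlapped between groups. Ccnd1 ranged from 7.93 to 118 CPM at rest and from 7.64 to 51.6 CPM in the active phase. Ccne1 was low, at 0.856 to 1.98 CPM at rest and 0.0932 to 1.16 CPM in the active phase. The median of the list was -0.521 against CT20 alone and 0.519 against CT44 alone.

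By size among genes with an established symbol and a mean log2 CPM of at least 1 whose groups did not overlap, the 10 largest rises were, after Dbp, Klhdc7a (4.11 ± 0.37), Nr1d1, Apol7a (2.73 ± 0.30), Lrtm1 (2.56 ± 0.50), Per3, Ciart, Isg15 (2.00 ± 0.19), Dclk3 (1.94 ± 0.32) and Ifit1 (1.91 ± 0.20). Klhdc7a, a kelch-repeat protein, stood at 29.6, 15.4, 22.5 and 17.6 CPM at rest and at most 2.89 CPM in the active phase. Apol7a, of the apolipoprotein L family, stood at 137, 112, 136 and 139 CPM against 6.31 to 52 CPM. Isg15 and Ifit1 are induced by interferon. Isg15 was at 4.64, 5.13, 5.14 and 5.18 CPM at rest and 0.721 to 1.89 CPM in the active phase.

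Under the same limits the 10 largest falls were led by Pdk4 and Ppp1r3g, followed by Igfbp1, the integrin gene Itga2 (-3.69 ± 0.71), the phosphatase gene Dusp8 (-3.62 ± 0.65), Cdkn1a, Ttll8 (-3.01 ± 0.38), Bmal1, Nfil3 and Ddit4. Ppp1r3g, which targets protein phosphatase 1 to glycogen, was at 0.806, 0.315, 0.757 and 2.33 CPM at rest and 8.76 to 121 CPM in the active phase (-4.87 ± 0.95, adjusted p = 0.000123). The lists are chosen by size, so their sizes are a description.

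Each night was then set against the rest phase on its own, the comparisons sharing the 4 mice at CT32. From the night before, 27.8% of all genes differed (CT32 minus CT20, 5831 genes, 2955 higher and 2876 lower), and from the night after 18.7% (CT32 minus CT44, 3922 genes, 1964 and 1958). All 5 activators were lower in either. For Bmal1 the differences were -3.14 and -2.60, for Dbp 4.57 and 3.94, and for Pdk4 -5.21 and -5.42. For Nr1d1 they were 4.04 and 2.26, for Per3 3.22 and 1.64, and for Npas2 -4.13 and -1.70. Heat shock genes were lower in 17 of 18 against CT20 and in 15 of 18 against CT44, and PPAR-alpha targets in 11 and 8 of 19. Counts in other lists differed between these comparisons, which does not test the nights against each other. Autophagy and lysosome genes were lower in 2 and 6 of 20, and cholesterol genes in 7 and 0 of 24. Erythroid and leukocyte markers were higher in 2 and 6 of 11. Tested directly (CT44 minus CT20), 2 of the 20 autophagy genes were higher and 0 lower. Of the 24 cholesterol genes 1 was higher and 5 lower, and of the 11 markers 0 were higher and 0 lower. The count of all genes called against CT44 fell to 2089 without CT44 male 2 and to 2487 without CT32 female 1.

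The nights themselves differed in 8.79% of genes (CT44 minus CT20, 1843 genes, 1052 higher and 791 lower), at equal phase and 24 h apart in fast length. Nr1d1 (1.79, adjusted p = 0.00045), Per3 (1.59, adjusted p = 0.00143) and Nr1d2 (1.20) were higher on the later night and Npas2 (-2.43) lower. Of the genes called between rest and active phase, 754 were also called here, 13.3%. This count leaned on single mice, and was 829 without CT44 female 1 and 2985 without CT44 female 2. It was 1023 without CT20 male 1, 1066 without CT20 female 2 and 1108 without CT44 male 2.

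**Figure D3:**
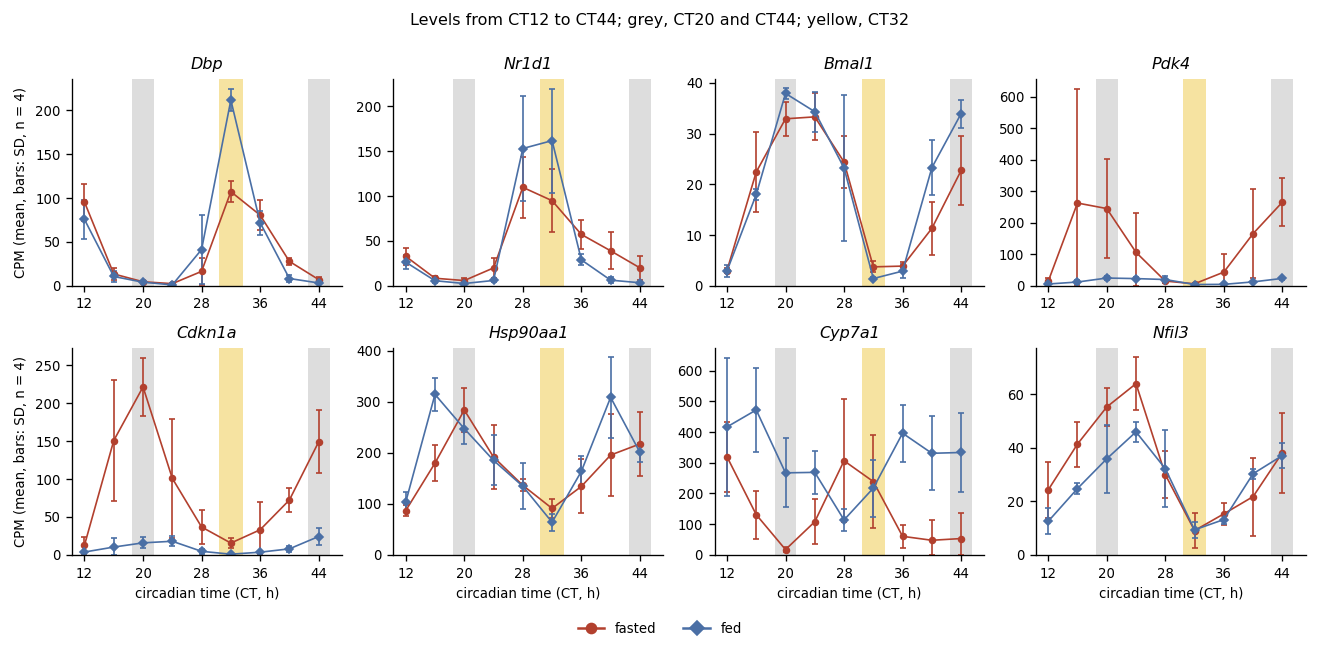
Mean level in CPM of 8 genes from CT12 to CT44 in fasted (red) and fed (blue) mice, with SD bars cut off at 0, n = 4 at each time; grey marks CT20 and CT44 and yellow CT32. Pdk4 and Cdkn1a rise on both nights of the fast and return at CT32 to 6.29 and 15.6 CPM, and Cyp7a1 in fasted mice stands at 239 CPM at CT32 against 17.2 and 53.1 CPM at CT20 and CT44.

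The same phases were compared in the 12 fed mice, which share no library with the fasted ones. With food, 9.43% of genes were higher at rest (1976 genes) and 8.29% lower (1739 genes). Called in both states were 1734 genes, 30.5% of the fasted calls and 46.7% of the fed calls, of which 1517 went the same way and 217 opposite ways. The difference between the fasted and the fed day–night difference was itself tested, and passed in 11.0% of genes (2298 genes). Among fasted calls it passed for 1538 genes. In 448 of these the sign was the same and the change larger without food, in 63 the same and smaller, and in 1027 the signs were opposite. Of the 1538, 1209 were not called in fed mice, so most of the fed signs belong to differences that did not pass. Taking the split among fasted calls favours changes larger without food. Outside it, the difference also passed for 632 genes called with food and not without it.

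Several core clock genes had the same sign with and without food and a smaller log2 difference without it. For Nr1d1 the log2 difference was 5.80 with food and 3.15 without (difference -2.65, adjusted p = 1.38e-05), for Ciart 4.32 and 2.06 (adjusted p = 0.00022), and for Nr1d2 3.22 and 1.00 (adjusted p = 6.57e-11). For Bmal1 it was -4.66 and -2.87 (adjusted p = 0.000607), for Npas2 -5.62 and -2.91 (adjusted p = 0.00577), for Cry1 -3.02 and -2.11 (adjusted p = 0.0136) and for Dbp 5.88 and 4.25 (adjusted p = 0.0196). The calls for Dbp, Npas2 and Cry1 did not hold without CT32 male 2 (adjusted p up to 0.0729), and those for Dbp and Cry1 did not hold without CT32 female 2 nor that for Dbp without CT44 female 1.

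Levels differed at either end of the range. Dbp averaged 107 CPM at rest without food and 212 CPM with it, and 5.83 and 3.64 CPM in the active phase. Nr1d1 averaged 94.9 and 162 CPM at rest and 12.9 and 2.97 CPM in the active phase. For Ciart the resting mean was not lower without food, at 41.7 against 24.2 CPM, and the active-phase mean was 10.5 against 1.33 CPM. No difference passed for Per3 (2.43 and 2.64, adjusted p = 0.817), Clock (adjusted p = 0.133), Tef, Nfil3 or Lonrf3. Per1 rose by 1.42 at rest with food and not without it (difference -1.43, adjusted p = 0.0219), a call lost without CT32 male 1 or CT32 female 2 (adjusted p up to 0.0672). Klf10 fell by 1.17 without food and rose by 1.59 with it (adjusted p = 0.000186).

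Heat shock genes were lower at rest in 12 of 18 with food too, with a fed median of -0.61, and the difference between the states passed for 2, Hspa8 (-1.09 without food and -0.12 with it, adjusted p = 0.00994) and Hspa1b, which are named after their values were seen. For Hspb1 both values were -2.24. Of the PPAR-alpha targets, 3 of 19 were higher and 1 lower with food, and 10 of 19 passed the difference. Slc22a5 was -1.43 without food and 0.58 with it (adjusted p = 1.16e-06), Acot2 -2.18 and 0.46 (adjusted p = 0.000161), Cidec -1.67 and 1.07 (adjusted p = 0.000359) and Plin2 -1.28 and 0.08 (adjusted p = 0.00053). Pdk4 fell in either state, by 5.32 and 2.60 on the log2 scale (adjusted p = 0.00413).

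Insulin and FOXO genes passed the difference in 6 of 17. Irs2 was -1.81 without food and 0.02 with it (adjusted p = 0.000188) and Insr -0.33 and 0.23 (adjusted p = 4.62e-05). Autophagy and lysosome genes were higher at rest in 6 of 20 with food and lower in 0, and 9 of 20 passed. Bnip3l was -0.70 without food and 0.27 with it (adjusted p = 3.94e-08), Bnip3 -0.47 and 0.59 (adjusted p = 0.000132) and Gabarapl1 -0.34 and 0.69 (adjusted p = 1.37e-05). Cyp7a1 was 3.28 without food and -0.49 with it (adjusted p = 0.000932).

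**Figure D4:**
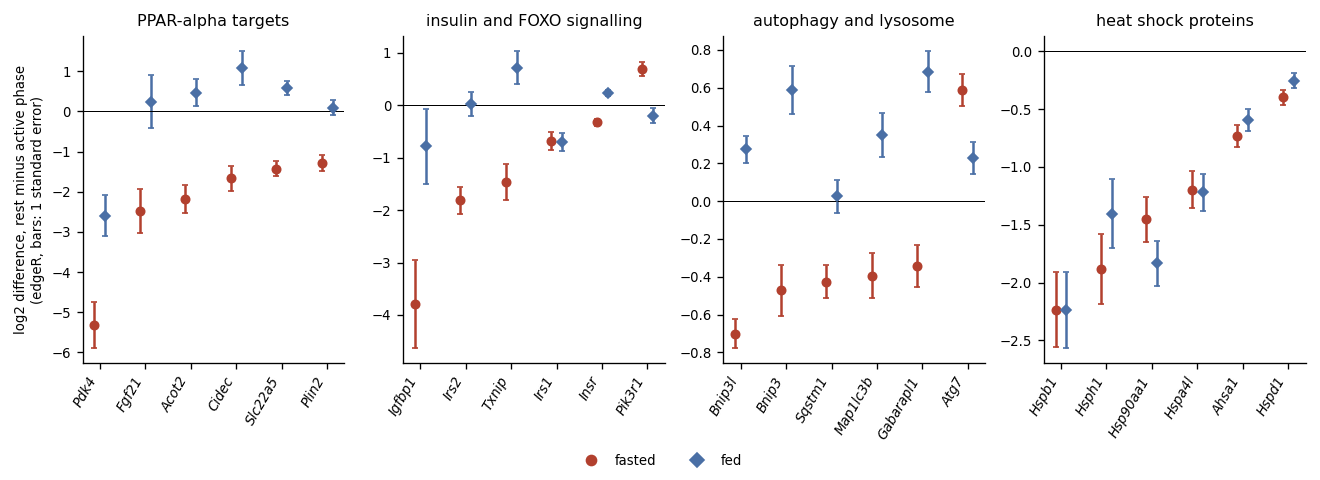
Log2 difference between rest and active phase, with its standard error, for named members of 4 lists in fasted (red circles) and fed (blue diamonds) mice. The panels have their own scales. Apart from Pdk4 and Atg7, the PPAR-alpha and autophagy genes shown lie below 0 without food and above it with food, and the heat shock genes lie below 0 in either state. Naming rested mostly on p without food, which favours clear differences there. With food some genes hardly differed, such as Sqstm1, at a mean of 379 CPM at rest and 373 CPM in the active phase.

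Ranked by the p of this difference, among genes with a mean log2 CPM of 1 or more, the first 6 were Nr1d2, Actb, Clmn, Arhgef19, Ppard and Bnip3l. Actb, the cytoskeletal actin often taken as a reference gene, was at 424, 343, 597 and 511 CPM at rest without food and 198 to 320 CPM in the active phase (1.00 ± 0.10), whereas with food it fell by 0.74 on the log2 scale. The difference was 1.75 (adjusted p = 2.1e-10). Ppp1r3g had the widest gap of the genes named, -4.87 without food against 2.71 with it (adjusted p = 0.000174).

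**Figure D5:**
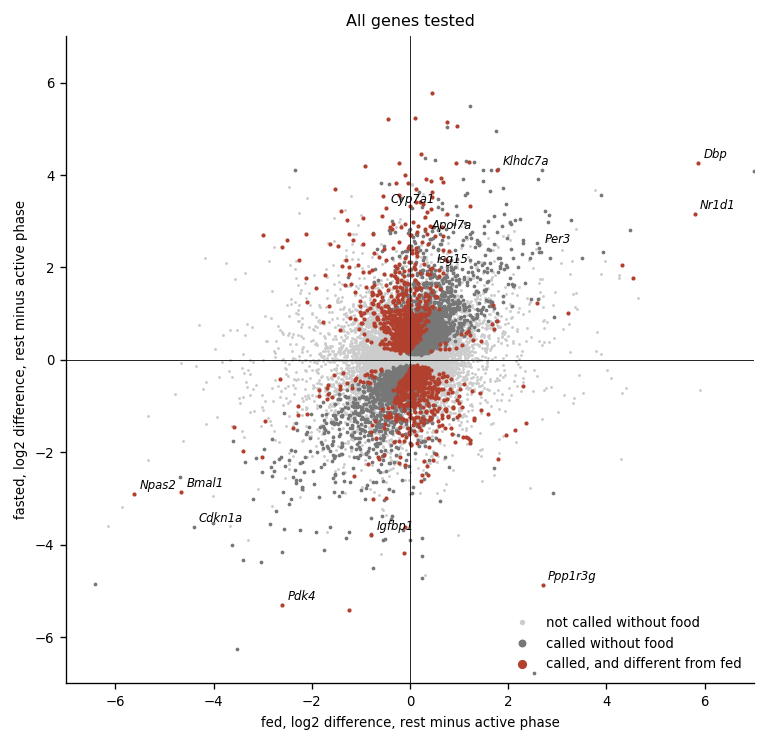
Log2 difference between rest and active phase for each gene, fed on the horizontal and fasted on the vertical axis; pale grey points were not called in fasted mice, dark grey points were, and red points were called and also differed from fed. Of 20965 genes 20964 lie within the axes. Dbp, Nr1d1, Per3, Bmal1 and Npas2 lie on the same side of 0 on both axes, Apol7a, Isg15 and Cyp7a1 lie at 0.34, 0.44 and -0.49 for fed mice, and Ppp1r3g lies at -4.87 without food and 2.71 with it.

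The day–night difference itself was compared between the sexes. No gene passed (0 of 20965), and 1102 had an unadjusted p under 0.05. limma's voom gave 0 genes and DESeq2 gave 1. The smallest p was that of Pim1, a kinase gene, at 28.1 and 38.4 CPM in resting males and 7.12 and 8.14 CPM in resting females, with a female minus male difference of -1.83 ± 0.37 (adjusted p = 0.151). With 2 mice of a sex at each time, differences between the sexes are poorly resolved.

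Markers of other liver cells were counted beside these results. Summed levels of erythroid and leukocyte markers were 76.4 to 156 CPM at rest and 51.3 to 92.2 CPM in the active phase (two-sided exact permutation test, p = 0.0141), the highest being CT32 male 2. That p is not adjusted for the several library measures tested in the same way. The other marker sums gave p from 0.0889 (cholangiocyte) to 0.931 (sex markers) in this test. Of 11 such genes 6 were higher at rest and 0 lower. Ms4a1 and Cd79a of B cells rose without overlap, by 2.70 ± 0.41 and 2.41 ± 0.40, at levels of at most 1.07 and 1.96 CPM. The 4 globin genes, near copies that can share reads, rose by 0.57 to 0.81, and the 6 became 2 without CT32 male 2 and 3 without CT32 female 2. In bulk samples more cells of a type and more RNA per cell cannot be told apart.

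Endothelial markers were lower in 4 of 8, Pecam1 (-0.52 ± 0.09) among them without overlap, and higher in 1, with summed levels of 281 to 379 CPM at rest and 312 to 448 CPM in the active phase. Kupffer cell and macrophage markers were higher in 1 of 11 and lower in 1, stellate markers were lower in 1 of 8, and cholangiocyte markers higher in 1 of 6 and lower in 1. Hepatocyte markers were lower in 1 of 9 (Hnf4a, -0.34, lost without any of 7 libraries in turn). The part of these shifts in the gene groups above was not tested.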

How the data were processed

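Livers of 80 mice were sequenced as strand-specific libraries of polyadenylated RNA, and the authors deposited raw gene counts for each library, 78275 genes in all. The submitters' processing notes name Trimmomatic, HISAT2, DESeq2 and the build GRCm39, without versions. How reads were assigned to genes, and whether strand was used, is not given in the sources used here. Groups were taken from sample titles, since other labels disagreed with the titles on treatment for 8 and on sex for 6 of the 12 fasted libraries. Xist and Ddx3y levels matched the sex given in all 12 titles. The authors' normalised values and exon tables were not used here.

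Counts were filtered with filterByExpr, scaled by TMM and fitted with edgeR 4.0.16 (quasi-likelihood test, R 4.3.3) to 72 libraries (CT12 to CT44 in both treatments), giving a mean to each of 36 combinations of treatment, time and sex and 36 residual degrees of freedom. The sexes were weighted equally, and rest minus active phase was CT32 minus the mean of CT20 and CT44. The same difference in fed mice, the fasted minus fed difference, the sex difference and the separate nights were contrasts of that fit. Tests were two-sided with Benjamini–Hochberg adjustment over all 20965 genes and a threshold of 0.05. The SE of a log2 difference was its size over the root of the F statistic. CPM are TMM-scaled, and log2 CPM of single libraries carry a prior count of 2. Single values were compared by exact permutation tests. The 12 libraries held 30551612 to 52999252 counts, and intervals reflect spread between mice. The procedure was tested on simulated data.

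Named genes were all clock activators, repressors and output factors, up to 6 members of each other list with the smallest p for rest minus active phase, the 10 largest rises and 10 largest falls without overlap between groups and with a mean log2 CPM of at least 1, the first 6 genes ranked by p for the fasted minus fed difference, and the first 4 for the sex difference. A few of them are not reported here. The comparison, its members and the gene lists were chosen with earlier results of these data known. Alternatives were other scalings, filters and tools (limma 3.58.1, DESeq2 1.42.0), other library sets, no sex term, a replicate block and each library left out. Coordinates are those of GENCODE M21 on GRCm38, in which 196 of 196 named genes were found by identifier, and promoter windows those of RefSeq on GRCm38.p6. Neither is the build of the counts, and no coordinate was converted.

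Replicate numbers are shared between times within each sex. The deviations of same-numbered mice from their group means correlated at -0.0322 to 0.0841, and the numbers were not taken to pair the mice.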

Additional observations from a re-analysis of the deposited data

Results flagged for a closer look

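In groups of 4 mice, the gap between the most extreme mouse and its nearest neighbour, divided by the range of the group, passed Dixon's critical value in 9 of 153 groups examined, where chance gives about 5%. CT44 female 1 stood apart for Clock (gap 0.86, log2 CPM 5.86 against 6.61 to 6.73 in the other 3), Lonrf3 (gap 0.876, 2.29 against 3.15 to 3.27) and Nr1d1 (gap 0.848, 5.32 against 3.65 to 3.90). CT44 male 1 stood apart for Apol7a (gap 0.883, 5.70 against 4.62 to 4.75). CT32 male 2 stood apart for Apol7a (gap 0.899, 6.80 against 7.09 to 7.12), Tspan4 (gap 0.856, 4.95 against 5.09 to 5.12) and the summed fast markers (gap 0.919, 4756 against 5962 to 6069 CPM). CT32 male 1 stood apart for Isg15 (gap 0.925, 2.23 against 2.37 to 2.38) and for the share of counts on Rn18s-rs5 (gap 0.843, 0.198% against 0.0659% to 0.0867%).

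The day–night difference differed between fasted and fed mice, by the test of the difference itself, in 2298 genes. Of 46 named genes examined 26 passed, and the fasted minus fed values follow. Among clock genes they were -2.65 for Nr1d1, -2.22 for Nr1d2, -2.26 for Ciart, -1.43 for Per1, -0.687 for Bhlhe40, 0.902 for Cry1, 1.79 for Bmal1 and 2.70 for Npas2. Among output factors they were -1.63 for Dbp, -2.75 for Klf10 and 1.08 for Dtx4. Among the largest falls without food they were -7.58 for Ppp1r3g, -3.01 for Igfbp1, -2.72 for Pdk4 and -2.26 for Ttll8. Among the largest rises they were 2.04 for Ifit1, 1.55 for Isg15, 2.39 for Apol7a, 2.32 for Klhdc7a, 2.31 for Lrtm1 and 1.35 for Dclk3. Of the genes with the smallest p they were 1.75 for Actb, -1.10 for Clmn, 1.69 for Arhgef19, 2.23 for Ppard and -0.974 for Bnip3l. Clmn itself did not pass the test without food (-0.17, adjusted p = 0.0587) and rose by 0.93 with food. The calls for Bhlhe40 and Dclk3 were lost without any of 9 fasted libraries in turn, and those for Igfbp1 and Lrtm1 without any of 6.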

How the results depend on the processing

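The 5682 genes that differed between rest and active phase without food became 2652 in males alone, 3291 in females alone, 639 against a minimum change of 1.5 times and 3721 at an adjusted p under 0.01, and ran from 4125 to 5976 with each library left out. Other scalings, filters and tools, all 80 libraries and the 12 fasted libraries alone gave 4899 to 5915, and a model without sex gave 4183. Leaving out a library gave 2089 to 3743 for CT32 minus CT44 (3922), 829 to 2985 for CT44 minus CT20 (1843), 2289 to 3653 for fed mice (3715; 2289 without control CT32 male 1 and 2434 without control CT32 female 1) and 1506 to 2387 for the fasted minus fed difference (2298; 1506 without CT32 female 1). Without sex, fed mice gave 2332 and the difference 1226. The sex difference (0) gave 268 with no filter on low counts and 1 with DESeq2. With the replicate block the count was 5565, and no comparison's count moved by over 1.5 times. Over the named genes and settings, 4942 values for rest minus active phase kept their side of the threshold, 464 lost it, 64 gained it and 1 reversed: Pim1, -0.67 over both sexes, was 0.25 in males alone (adjusted p = 0.602). The causes were not tested. Counts in lists with 1 or 2 calls often changed with a library left out. Depth and 2 mice of a sex at each time limit low genes and the sex difference.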

Other observations

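Isg15 and Ifit1 stood among the largest rises and B cell markers rose, so lists of interferon-stimulated, B cell, and T cell and NK cell genes were written after the data were seen, and their counts are a description. Of 27 interferon-stimulated genes, which include sensors and effectors of antiviral defence, 20 were higher at rest without food and 0 lower, with a median log2 difference of 0.89 (19 to 22 with a fasted library left out). In 17 the resting mice lay above all active ones. Rigi, a sensor of viral RNA, rose by 1.28 ± 0.11 (edgeR, adjusted p = 5.89e-11) and the antiviral GTPase gene Mx1 by 1.98 ± 0.25. Oasl2 (0.11), Bst2 (0.01) and Oas2 (-0.24) did not pass. Their summed level was 369, 381, 391 and 393 CPM in the resting mice, in order of size, and 161 to 304 CPM in the active phase. With food 1 of 27 was higher and 4 lower, at 406 to 532 CPM at rest and 405 to 655 CPM in the active phase, and the difference between the states passed for 17.

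Of 18 B cell genes 17 were higher at rest without food and 0 lower, with a median of 1.96 (15 to 17 with a library left out). Fcer2a, a low-affinity IgE receptor gene, rose by 3.57, and Cd37 did not pass (0.42). Their sum was 22.8, 24.2, 34.3 and 39.9 CPM at rest, in order of size, and 7.92 to 18.2 CPM in the active phase. Fed mice had 29.6 to 41.4 CPM at rest and 24.2 to 61.5 CPM in the active phase, with 0 of 18 called in either direction, and the difference between the states passed for 12. Of 15 T cell and NK cell genes 0 were higher and 0 lower (0 to 1 higher with a library left out), with a median of 0.21, at 4.35 to 7.83 CPM at rest and 4.21 to 7.99 CPM in the active phase.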
